A study of Mus musculus with 16 samples.

Results

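The question here was whether the heart's transcriptional response to coronary artery ligation differed between DBA/2J and C57Bl6/N mice. The quantity described is a difference of differences: the change from untreated to ligated hearts in DBA/2J (DBA), minus the same change in C57Bl6/N (C57). It used all 16 of the 16 libraries, each from 1 mouse, in 4 groups of 4, and was fitted for 13504 genes. The groups were DBA/2J mice with permanent coronary artery ligation, untreated DBA/2J mice, C57Bl6/N mice with ligation and untreated C57Bl6/N mice. All were female and 3 months old, and ligated hearts were taken 2 weeks after the operation. Controls were untreated, so effects of infarction and of surgery cannot be told apart. Sample names call the ligated tissue remote, that is, away from the infarct. The series' design text names the septum and right ventricle as the tissue and the sample labels name the septum and left ventricle. The sample names also give the substrain of the C57 controls as C57Bl-6NCR and that of the ligated C57 mice as C57Bl-6N, so any difference between those sources is part of the C57 response. PolyA RNA was sequenced and counted per gene.

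After loss of heart muscle the surviving myocardium carries a higher load. Its muscle cells re-express genes of the fetal heart, among them natriuretic peptides, beta myosin heavy chain and skeletal alpha actin, and fibroblasts deposit extracellular matrix. A strain can differ from another at each of these genes by where it starts, by how far it moves, or by both. A gene that already stands high in untreated hearts shows a small fold change for the same added RNA, so the genes the results turn on are given by their levels in the 4 groups and their fold changes, and several also by their change in CPM, counts scaled to a common library size. In bulk tissue fewer cells of a type and less RNA per cell cannot be told apart.

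Libraries held 15067621 to 22010830 counts in DBA ligated hearts, 4922411 to 17013017 in DBA controls, 13724074 to 20948416 in C57 ligated hearts and 8217335 to 14240019 in C57 controls. The DBA controls were the least uniform group, with 47.8% of the residual variance of all libraries, and DBA control 4, the shallowest, alone had 22.2%. The median gene's SD on the log2 scale was 0.115 in DBA ligated hearts, 0.293 in DBA controls, 0.155 in C57 ligated hearts and 0.183 in C57 controls. Deviations of the DBA controls also ran with the GC content of genes (Spearman correlations over genes of 0.445, 0.489, -0.295 and -0.463 in DBA controls 1 to 4). The C57 controls showed this too, with -0.329, 0.0136, 0.245 and 0.225 in C57 controls 1 to 4. In ligated hearts the correlations lay between -0.209 and 0.153. The controls of both strains enter every response difference below, and their part in each was not tested beyond leaving libraries out.

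No gene's response differed between the strains at an adjusted p under 0.05 (edgeR quasi-likelihood test, Benjamini-Hochberg, 0 of 13504 genes, 0%), and the smallest adjusted p was 0.387. At an unadjusted p under 0.05 there were 782 genes (5.79%, where 5% would be expected if no gene differed), 309 with a higher value in DBA (2.29%) and 473 with a lower one (3.5%). That count was not stable: it was 1854 (13.7%) without DBA control 2, 1217 (9.01%) with a GC offset and 2556 (18.9%) with the first residual component as a covariate, while leaving out any other single library gave 605 to 1046. DESeq2 called 17 genes (0.126%) at its adjusted p, 3 higher and 14 lower, with 876 at an unadjusted p under 0.05. The authors' deposited table has 19 genes with a false discovery rate under 0.05 (0.137% of 13842 genes); its fold changes run as C57 response minus DBA response, with 14 positive and 5 negative. These calls shared 13 genes, and 23 genes were in either. The genes are described below because they are the ones on which the procedures differ. They were named after their values were seen. None passed the edgeR quasi-likelihood test used here with all libraries and no covariate, called the main fit below. The authors' deposited values also come from edgeR, so the procedures do not differ by tool alone. Values given as edgeR's below are those of the main fit unless another is named.

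The genes with the smallest p pointed mainly one way. Myh7, Timp1, Ltbp2, Cilp and Acta1, genes of the fetal program and of the matrix, had log2 responses that were 1.53 to 2.14 units lower in DBA than in C57, none of them past the adjusted threshold of the main fit. All of these except Cilp were higher in untreated DBA hearts than in untreated C57 hearts. Prepl, Sspn and Prune2 were lower after ligation in DBA with no called change in C57, and Dio2, Tet1 and Hsd17b7 were higher after ligation in C57 with no called change in DBA. Kcne1 and Igfals were the 2 genes called in both strains in opposite directions.

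**Figure D1:**
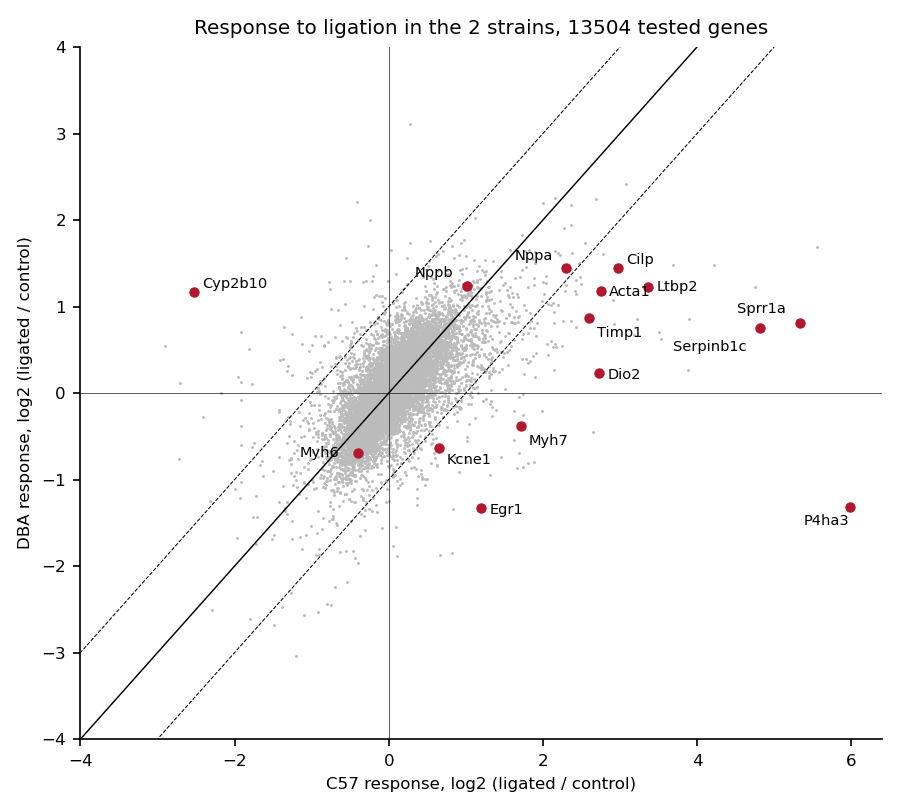
Log2 fold change on ligation in DBA (vertical axis) against that in C57 (horizontal axis), 1 grey point per tested gene; the solid line marks equal responses and the dashed lines a 2-fold difference, and 1 gene lies outside the axes. Red points name 15 genes, among which Myh7, Acta1, Timp1 and Ltbp2 lie to the right of the lower dashed line with larger C57 values and Nppb lies near the line of equal responses.

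Most genes called in one strain moved the same way in the other. Fold changes in each strain came from separate libraries, whereas the calls shared 1 estimate of the spread over all 16 libraries. In DBA 1501 genes rose (11.1%) and 1859 fell (13.8%), and in C57 978 rose (7.24%) and 818 fell (6.06%). The genes that rose in DBA had a median log2 change of 0.60 there and 0.42 in C57, and 96.4% of them had a positive value in C57. The genes that fell in DBA had medians of -0.48 in DBA and -0.30 in C57. Genes that rose in C57 had a median of 0.50 in DBA and 0.68 in C57, and those that fell had -0.38 in DBA and -0.46 in C57. In each of these pairs the strain in which genes were chosen has the larger value, which the choice itself favours. Called in both were 583 genes that rose, 509 that fell and the 2 of opposite sign. These counts moved with single libraries: the DBA total of 3360 became 1318 without DBA control 3, 5091 without DBA control 2, 2235 without DBA ligated 1, 1811 without S41 and 1793 without S42. The C57 total of 1796 became 618 without C57 ligated 1, 754 without C57 ligated 3, 931 and 886 without C57 controls 1 and 2 and 2854 without DBA control 4. That library is no C57 library but enters the shared estimate of the spread. What part this had in the change was not tested.

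The data bound the response difference more closely for genes of higher expression. The median standard error was 0.213 on the log2 scale and the median half-width of the 95% interval was 0.449. It was 0.359 for genes with at least 10 CPM on average, 0.624 between 2 and 10 CPM and 1.21 under 2 CPM. Called genes had median log2 changes of 0.60 and -0.48 in DBA and 0.68 and -0.46 in C57. Beside these a typical half-width was not small. For 76.9% of genes the whole interval lay within a 2-fold difference, and for 43.5% within 1.5-fold. Of the 4062 genes called in either strain, 3208 (79.0%) had an interval within 2-fold, and of the 1094 called in both, 952 (87.0%). Calls favour genes of low spread, and calls in both strains favour similar responses, so the choice itself raises the last share. Of the 325 genes with a fitted difference of at least 2-fold, 219 (67.4%) had under 2 CPM on average, and 133 had an unadjusted p under 0.05. Most of the large values came from genes with few counts.

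The 8 genes below had the narrowest intervals, 4 in each direction, among genes with at least 2 CPM that were called the same way in both strains. Actn4, a non-muscle alpha actinin that crosslinks actin, averaged 203 ± 7.49 CPM in DBA ligated hearts and 155 ± 5.92 CPM in DBA controls (SD, n = 4 in every group of this report), and 188 ± 13.4 CPM in C57 ligated hearts and 154 ± 6.96 CPM in C57 controls. Its response difference was 0.10, with a 95% interval of -0.11 to 0.31. Ppp3cb, a catalytic subunit of the phosphatase calcineurin, averaged 99.9 ± 1.87 CPM in DBA ligated hearts against 122 ± 7.01 CPM in DBA controls, and 101 ± 4.49 CPM in C57 ligated hearts against 120.4 ± 2.88 CPM in C57 controls. It fell in each strain, with a difference of -0.03 (-0.23 to 0.16). The G protein subunits Gna13 (-0.02, -0.24 to 0.21) and Gnai3 (-0.04, -0.26 to 0.19) and the translocon subunit Sec61a1 (-0.09, -0.32 to 0.13) rose in both strains. Casd1 (-0.20 to 0.19), Itfg1 (-0.24 to 0.15) and Tm9sf2 (-0.21 to 0.17) fell in both. For each of these 8 genes a difference of 1.5-fold lies outside the interval, which the way they were chosen favours.

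**Figure D2:**
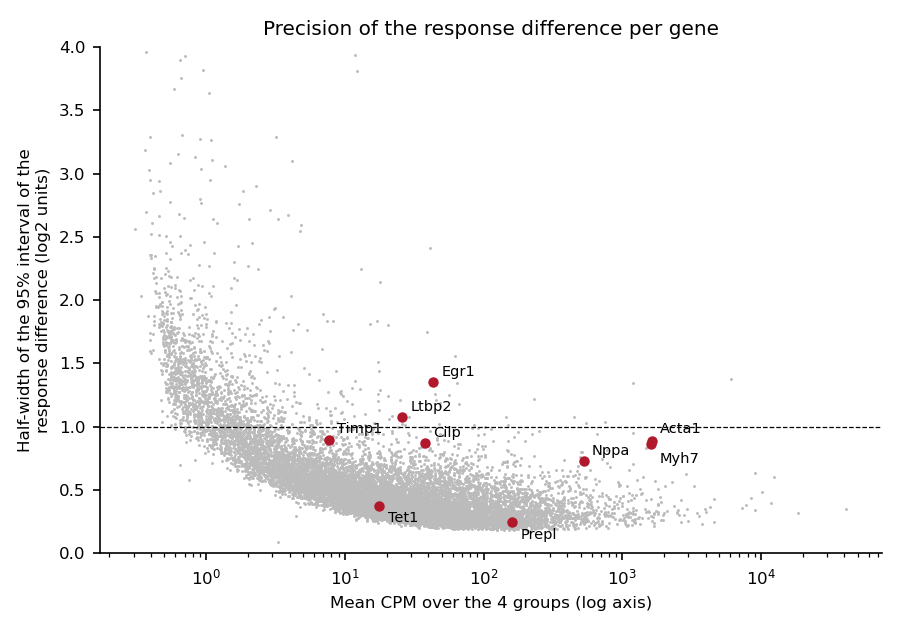
Half-width of the 95% interval of the log2 response difference against mean CPM over the 4 groups (log axis), 1 grey point per gene; the dashed line marks a 2-fold half-width and 31 genes lie above the plot. Red points name 9 genes: Prepl and Tet1 have narrow intervals, whereas Acta1, Myh7 and Nppa, though more abundant, have wider ones.

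Myh7 encodes beta myosin heavy chain, the slow myosin of the fetal mouse ventricle. It had 1968, 2118, 1859 and 2060.2 CPM in DBA ligated hearts, against 2217, 1853, 3019 and 3347 CPM in DBA controls. C57 hearts had 2759.8, 969, 959.8 and 915 CPM after ligation, against 341, 402, 501 and 468 CPM in controls. Every untreated DBA heart held more Myh7 than 3 of the 4 ligated C57 hearts, and the DBA groups overlapped. The first ligated C57 library stood far above its group. The strain difference was 0.51 ± 0.29 after ligation and 2.61 ± 0.30 in controls (log2 ± SE; adjusted p = 0.241 and 7.36e-06 by edgeR). The DBA response was -0.38 ± 0.29 (adjusted p = 0.331) and the C57 response 1.71 ± 0.29 (adjusted p = 0.00243). The response difference was -2.09 ± 0.41 (95% interval -2.95 to -1.23, unadjusted p = 7.95e-05, adjusted p = 0.387; 0.0417 by DESeq2), and -1.52 without C57 ligated 1. For Myh7 the CPM scale pointed the same way, with a change of -608 CPM in DBA and 973 CPM in C57, a difference of -1581 CPM, or -994 CPM without the 3 shallowest libraries. Myh7 and its neighbour Myh6 are near-identical in sequence, and how the authors' counting treated reads that match both is not given in the sources used here.

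Acta1 encodes skeletal alpha actin, another fetal gene of the ventricle, and is near-identical in its coding sequence to cardiac actin, so its counts carry the same uncertainty. It had 3467, 3176, 3215 and 4048 CPM in DBA ligated hearts, against 2239, 1972, 958 and 986 CPM in DBA controls. The C57 values of Acta1 were 1948, 789, 1701 and 775 CPM in ligated hearts, against 184, 233, 179 and 178 CPM in controls. Ligated and control hearts did not overlap in either strain, nor did the strains at either stage. The C57 controls were uniformly low. Acta1 rose in both strains, by 1.17 ± 0.30 in DBA (adjusted p = 0.012) and 2.75 ± 0.32 in C57 (adjusted p = 2.76e-04). The log2 response difference was -1.58 ± 0.42 (adjusted p = 0.587 by edgeR, 0.0815 by DESeq2, and a false discovery rate of 0.0818 in the authors' deposited table). On the CPM scale the order turned round, with 1938 CPM added in DBA and 1109.9 CPM added in C57, a difference of 828 ± 494 CPM (SE). The same libraries therefore give a smaller fold and a larger increment in DBA, and the starting level of 1539 CPM in DBA controls against 193 CPM in C57 controls separates the readings. Without the 3 shallowest libraries the CPM difference was 269 CPM.

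The sequences before the start sites of Acta1, Myh7 and Nppb are shown because these fetal genes differed in where they started: Acta1 and Myh7 were higher in DBA controls than in C57 controls, and Nppb, described below, had no called strain difference there. Each window runs from 250 bases before to 50 bases after the gene's start, from RefSeq on GRCm38.p6, at chr8:123894726-123895025 (minus strand) for Acta1, chr14:54994577-54994876 (minus strand, the first of 2 windows listed) for Myh7 and chr4:147985650-147985949 (plus strand) for Nppb. Capitals mark matches to the CArG box, which serum response factor binds, and to the MCAT element (CATTCC, or GGAATG on the other strand), which TEAD factors bind.
Acta1: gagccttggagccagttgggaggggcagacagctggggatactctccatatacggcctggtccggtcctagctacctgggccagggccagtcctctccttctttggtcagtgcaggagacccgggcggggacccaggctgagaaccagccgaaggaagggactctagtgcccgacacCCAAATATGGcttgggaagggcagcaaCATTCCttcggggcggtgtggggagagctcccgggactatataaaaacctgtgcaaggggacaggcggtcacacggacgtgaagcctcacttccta
Myh7: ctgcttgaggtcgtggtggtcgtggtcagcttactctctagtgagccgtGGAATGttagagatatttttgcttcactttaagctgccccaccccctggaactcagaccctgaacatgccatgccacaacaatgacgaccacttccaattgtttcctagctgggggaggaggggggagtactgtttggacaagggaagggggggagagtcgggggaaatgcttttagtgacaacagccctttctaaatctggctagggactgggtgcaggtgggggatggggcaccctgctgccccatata
Nppb: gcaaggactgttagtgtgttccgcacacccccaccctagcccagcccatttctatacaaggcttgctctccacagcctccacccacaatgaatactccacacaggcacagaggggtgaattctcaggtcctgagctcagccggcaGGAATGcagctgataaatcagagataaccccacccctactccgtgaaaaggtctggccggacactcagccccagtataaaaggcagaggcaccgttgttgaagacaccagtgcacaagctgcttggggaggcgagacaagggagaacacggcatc
The Acta1 window had a CArG box 73 bases and an MCAT element 46 bases before the start. The Myh7 window had an MCAT element 201 bases before the start and the Nppb window 105 bases before it. Among 32851 mouse promoter windows of the same length, 1.63% held a CArG box and 14.7% an MCAT element on either strand. These are C57BL/6 reference sequences and matches of letters, and the data here do not bear on binding.

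Nppa and Nppb encode the atrial and B-type natriuretic peptides, which muscle cells release under stretch. Nppa had 785, 986, 1096 and 1028 CPM in DBA ligated hearts, against 244, 365, 247 and 581 CPM in DBA controls. In C57 it had 863, 469, 748 and 507 CPM in ligated hearts, against 102, 150.4, 128 and 142 CPM in controls. Every ligated heart exceeded every control of its strain. Nppa rose by 1.44 ± 0.25 in DBA and 2.30 ± 0.26 in C57, a difference of -0.86 ± 0.35 (adjusted p = 0.831; -0.53 without DBA control 4), while its increments were 614 CPM in DBA and 516 CPM in C57. Nppb had lower means in DBA, with no called strain difference. It had 185, 192, 111 and 156 CPM in DBA ligated hearts, against 31.1, 110.4, 46.7 and 84.6 CPM in DBA controls, and 251, 223, 197 and 309 CPM in C57 ligated hearts, against 136, 162, 91.7 and 96.2 CPM in C57 controls. It rose by 1.24 ± 0.30 in DBA and 1.01 ± 0.30 in C57, and the difference of 0.23 ± 0.42 (adjusted p = 0.922, interval -0.66 to 1.11) changed sign to -0.023 without DBA control 1. Its interval includes a 1.5-fold difference in either direction. Ankrd1, a stress-induced sarcomeric and nuclear protein, averaged 3794 ± 275 CPM in DBA ligated hearts and 2438 ± 910.0 CPM in DBA controls, and 3660.0 ± 836 CPM in C57 ligated hearts and 1539.7 ± 300.5 CPM in C57 controls. After ligation the strain difference of Ankrd1 was 0.05 ± 0.21, against 0.66 ± 0.21 in controls, and its response difference was -0.61 ± 0.30 (adjusted p = 0.849), or -0.34 without DBA control 4. The CPM difference of Ankrd1 was -764 CPM with all libraries and -62.3 CPM without the 3 shallowest. Myh6, the adult alpha myosin heavy chain, fell in both strains, with log2 changes of -0.69 ± 0.12 in DBA and -0.40 ± 0.12 in C57 and a difference of -0.30 ± 0.17 (adjusted p = 0.857). Atrial muscle also expresses Nppa. The summed level of 8 other atrial markers was 136 to 166 CPM in DBA ligated hearts, 208 to 382 in DBA controls, 187 to 247 in C57 ligated hearts and 255 to 413 in C57 controls, lower in ligated hearts, where Nppa was higher; the atrial marker Bmp10 was not among the genes tested and Sln was at 0 in a C57 ligated library.

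**Figure D3:**
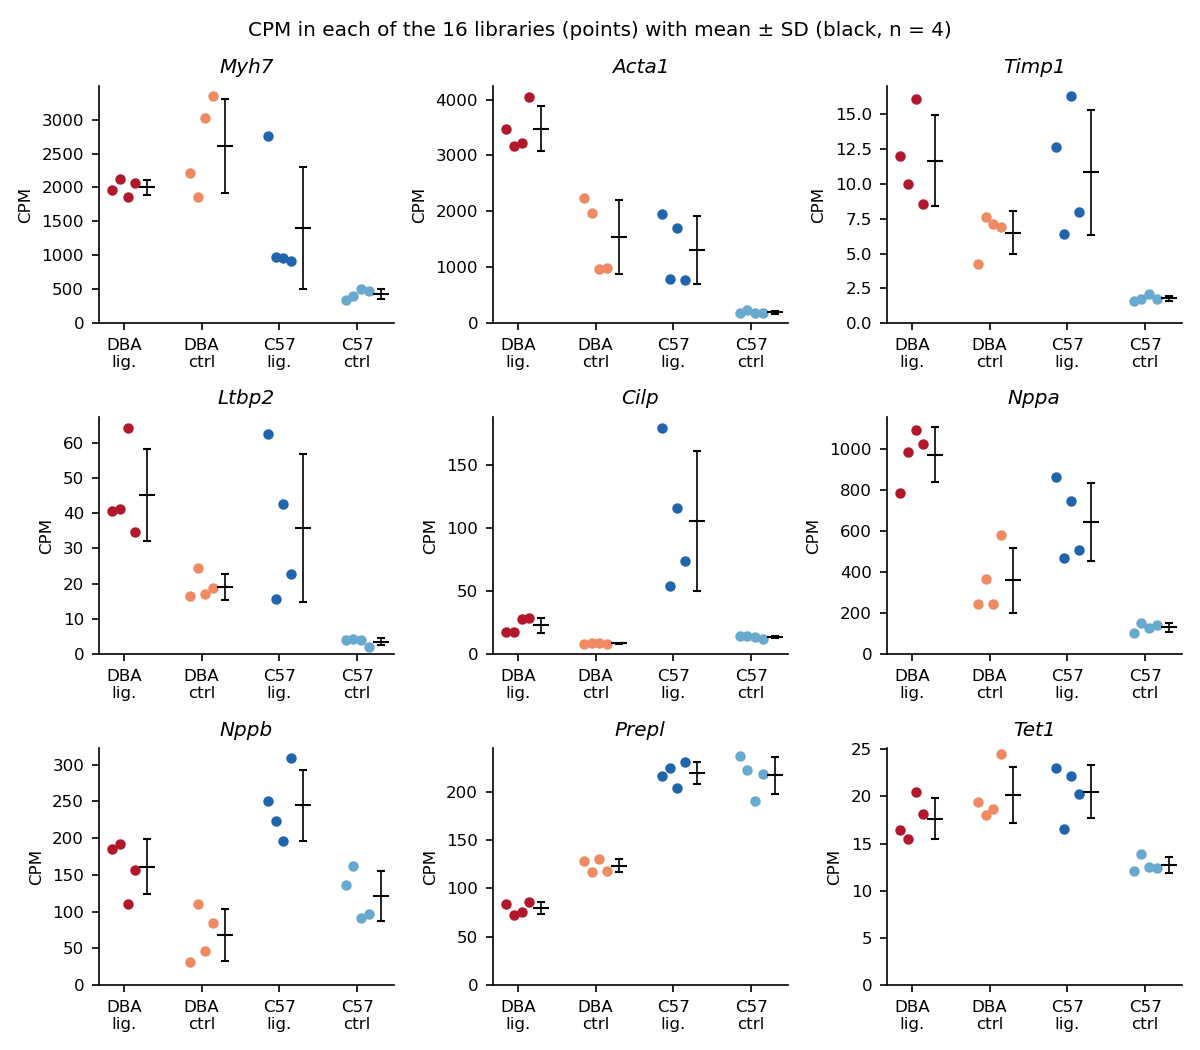
CPM of 9 genes in each of the 16 libraries, with the mean and SD of each group of 4 in black beside the points and linear axes from 0; groups from left to right are DBA ligated, DBA control, C57 ligated and C57 control. C57 ligated 1 and 3 are the upper points of their group for Acta1, Timp1, Ltbp2, Cilp and Nppa, and Myh7 has 1 high C57 ligated point.

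Timp1, an inhibitor of matrix metalloproteinases, had 12, 10, 16.1 and 8.55 CPM in DBA ligated hearts, against 4.24, 7.65, 7.15 and 6.94 CPM in DBA controls. C57 hearts had 12.7, 6.39, 16.3 and 7.97 CPM after ligation, against 1.61, 1.7, 2.07 and 1.72 CPM in controls. The ligated groups overlapped, whereas every DBA control exceeded every C57 control. The strain difference was 0.10 ± 0.25 after ligation (adjusted p = 0.836) and 1.83 ± 0.34 in controls (adjusted p = 8.58e-04). Timp1 rose by 0.86 ± 0.27 in DBA and 2.59 ± 0.32 in C57, a difference of -1.73 ± 0.43 (adjusted p = 0.526 by edgeR, 0.0413 by DESeq2). Its increments were 5.17 CPM in DBA and 9.06 CPM in C57.

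Ltbp2, an elastic fibre protein of the family named latent TGF-beta binding proteins, followed the same course. It had 40.7, 41.3, 64.3 and 34.7 CPM in DBA ligated hearts, against 16.5, 24.5, 17 and 18.6 CPM in DBA controls, and 62.4, 15.8, 42.5 and 22.6 CPM in C57 ligated hearts, against 3.89, 4.19, 3.98 and 2.07 CPM in C57 controls. The ligated groups overlapped and the controls did not. The log2 response difference of Ltbp2 was -2.14 ± 0.51 (adjusted p = 0.526 by edgeR, 0.0261 by DESeq2). On the CPM scale its increments were 26.1 in DBA and 32.3 in C57, and their difference of -6.22 ± 12.5 CPM was smaller than its standard error. Postn, the matricellular protein of activated fibroblasts, averaged 417 ± 88.8 CPM in DBA ligated hearts and 189.8 ± 67.7 CPM in DBA controls, and 332 ± 194 CPM in C57 ligated hearts and 61.9 ± 6.61 CPM in C57 controls. Its log2 response difference was -1.28 ± 0.46 (adjusted p = 0.802) and its CPM difference -42.4 ± 112. Col1a1, a chain of fibrillar collagen I, gained 343 CPM in DBA and 346 CPM in C57 with a log2 difference of -0.66 ± 0.29 (adjusted p = 0.846). Col3a1, of collagen III, gained 1028 CPM in DBA and 897 CPM in C57 with a log2 difference of -0.49 ± 0.28 (adjusted p = 0.857). Without C57 ligated 1 these log2 differences were -0.38 for Col1a1 and -0.25 for Col3a1.

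Cilp, a matrix protein that binds TGF-beta, differed from these in its levels. It had 17.4, 17.8, 27.8 and 28.5 CPM in DBA ligated hearts, against 8.2, 8.76, 8.56 and 8.02 CPM in DBA controls. The C57 values of Cilp were 179, 53.7, 116 and 73.5 CPM in ligated hearts, against 13.9, 14.5, 13.7 and 12.1 CPM in controls. Every ligated C57 heart exceeded every ligated DBA heart. Cilp rose in both strains, by 1.44 ± 0.30 in DBA and 2.97 ± 0.29 in C57, and the strain difference was -2.21 ± 0.27 after ligation (adjusted p = 1.08e-05) and -0.68 ± 0.32 in controls (adjusted p = 0.136). The response difference was -1.53 ± 0.41 (adjusted p = 0.587 by edgeR, 0.0754 by DESeq2) and the CPM difference -77.6 ± 28. For Cilp a smaller fold and a smaller increment in DBA went with a lower, not a higher, mean in controls. Col12a1, a fibril-associated collagen (-1.70 ± 0.46, adjusted p = 0.587), and Lox, which crosslinks collagen (-1.43 ± 0.41, adjusted p = 0.674), also had smaller CPM increments in DBA (3.31 for Col12a1 and 10.4 for Lox, against 14.4 and 20.3 in C57), and their control levels were higher in DBA.

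Across 51 matrix genes, 38 rose in DBA (11.1% over all genes) and 46 rose in C57 (7.24% over all genes), with none falling. Their median log2 change was 0.86 in DBA and 1.30 in C57. In untreated hearts 32 of the 51 were higher in DBA and none lower, and after ligation 11 were higher and 1 lower. The backgrounds over all genes were 12.6% higher and 9.92% lower in controls, and 10.6% higher and 8.81% lower after ligation. The median response difference of the list was -0.46, against -0.0056 over all genes tested, with 46 of 51 values negative and none called. At an unadjusted p under 0.05, 18 were lower and 0 higher (3.5% and 2.29% over all genes). On the CPM scale 13 of the 46 negative values were positive. The libraries of C57 ligated hearts 1 and 3 were the higher ones for Timp1, Ltbp2, Postn and Cilp, and the list's median was -0.26 without C57 ligated 1, negative still, as it was without any other single library. The summed level of 17 fibroblast markers, Col1a1 among them, was 4683 to 5657 CPM in DBA ligated hearts, 3386 to 3817 in DBA controls, 3625 to 4729 in C57 ligated hearts and 2836 to 3142 in C57 controls. It was higher in ligated hearts of both strains. The median response difference of these markers was -0.14. The part of fibroblast number in the values of the matrix genes was not tested.

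**Figure D4:**
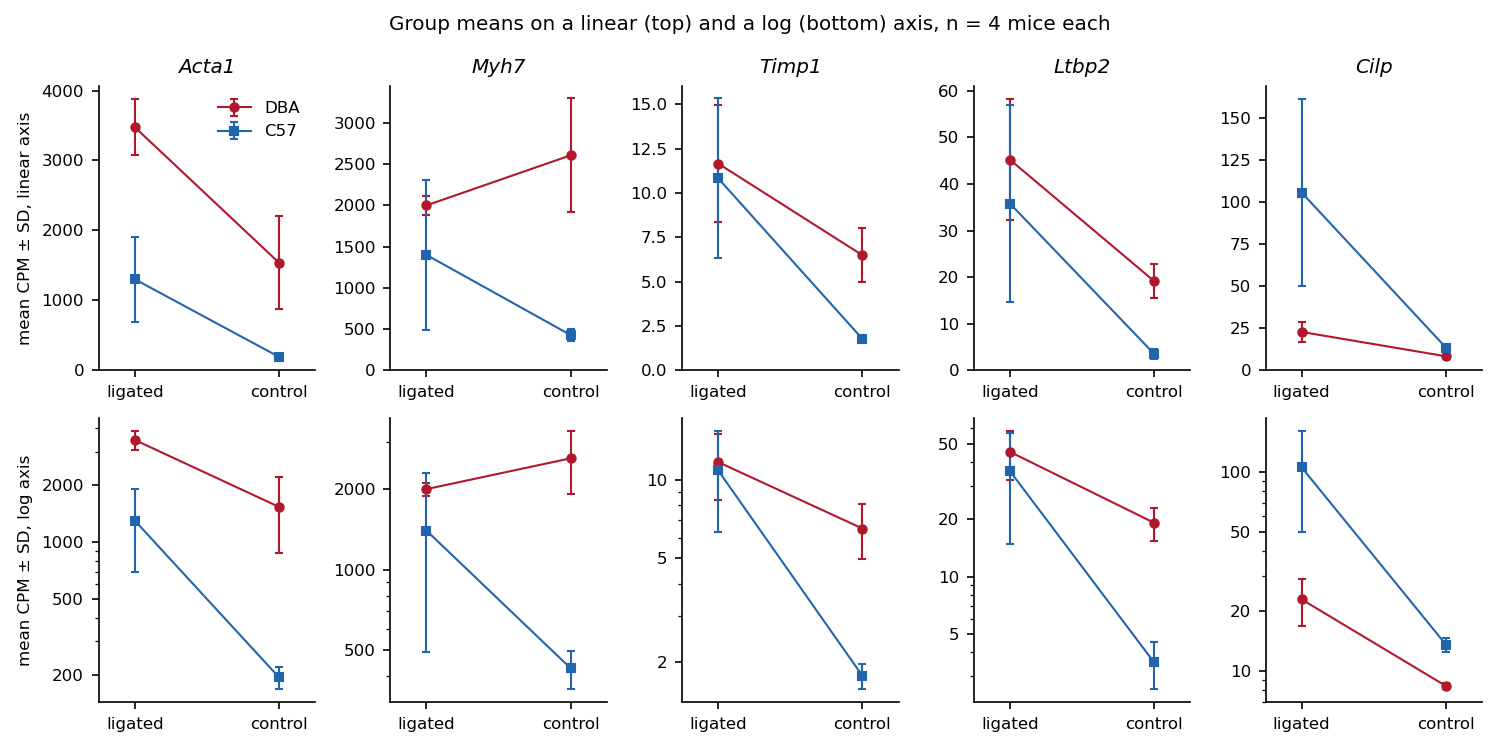
Group means ± SD (n = 4) of 5 genes on a linear axis (top) and a log axis (bottom), ligated left of control in each panel, DBA in red circles and C57 in blue squares. On the log axis the C57 line is steeper for each gene; on the linear axis the Acta1 line is steeper in DBA and the Ltbp2 lines are near parallel, while Cilp stays steeper in C57.

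Some genes moved in DBA alone by edgeR's calls. Prepl, a prolyl oligopeptidase-like hydrolase, had the smallest p of all response differences. It had 84, 72.7, 76.1 and 85.8 CPM in DBA ligated hearts, against 128, 117, 130.0 and 118 CPM in DBA controls. In C57 it had 217, 225, 204 and 231 CPM in ligated hearts, against 237, 222, 191 and 219 CPM in controls. The DBA groups did not overlap, the C57 groups did, and both strain differences had the same sign. Prepl fell in DBA, with a log2 change of -0.63 ± 0.08, against 0.01 ± 0.08 in C57, where the change was not called (adjusted p = 0.929). The difference was -0.65 ± 0.12 (unadjusted p = 3.46e-05, adjusted p = 0.387 by edgeR, 1.55e-04 by DESeq2). Since Prepl was lower in untreated DBA hearts, its smaller level after ligation did not follow a higher starting level. Sspn, a component of the dystrophin complex at the muscle membrane, averaged 235 ± 6.74 CPM in DBA ligated hearts and 294 ± 10.1 CPM in DBA controls, and 404 ± 19.3 CPM in C57 ligated hearts and 416 ± 12.2 CPM in C57 controls, with a difference of -0.28 ± 0.09 (adjusted p = 0.712; 0.0346 by DESeq2). Prune2 had a difference of -0.58 ± 0.14 (adjusted p = 0.52; 0.0346 by DESeq2), with 93.7 CPM in DBA ligated hearts, 122 in DBA controls, 216 in C57 ligated hearts and 188 in C57 controls.

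Others moved in C57 alone. Tet1, which oxidises methylcytosine in DNA, had 16.4, 15.4, 20.5 and 18.2 CPM in DBA ligated hearts, against 19.4, 18, 18.7 and 24.5 CPM in DBA controls. C57 hearts had 23, 16.6, 22.2 and 20.3 CPM after ligation, against 12.1, 13.9, 12.5 and 12.4 CPM in controls. The C57 groups did not overlap, and ligated C57 hearts overlapped with untreated DBA hearts. The response difference of Tet1 was -0.87 ± 0.18 (adjusted p = 0.387 by edgeR, 0.0181 by DESeq2). Dio2, the deiodinase that activates thyroid hormone, had 8.36, 7.33, 8.17 and 7.41 CPM in DBA ligated hearts, against 4.39, 5.1, 7.85 and 11.7 CPM in DBA controls, and 34.1, 6.91, 23.3 and 13.6 CPM in C57 ligated hearts, against 5.5, 3.28, 1.92 and 1.89 CPM in C57 controls. Its strain difference was -1.33 ± 0.37 after ligation (adjusted p = 0.0166) and 1.17 ± 0.48 in controls (adjusted p = 0.0938), of opposite sign and similar size. The response difference of Dio2 was -2.50 ± 0.61 (adjusted p = 0.526 by edgeR, 0.0261 by DESeq2), and C57 ligated 1 and 3 were again the higher libraries. Hsd17b7, an enzyme of cholesterol synthesis, had 36.1, 41.8, 37.4 and 43 CPM in DBA ligated hearts, against 41.8, 53.5, 46.6 and 30.1 CPM in DBA controls, and 66.6, 60.7, 73.9 and 63.5 CPM in C57 ligated hearts, against 49.8, 44.3, 38 and 41.3 CPM in C57 controls. Controls of the strains overlapped in Hsd17b7 and ligated hearts did not. It was the 1 gene called when the 3 shallowest libraries were left out (difference -0.96, adjusted p = 0.0402), against -0.75 ± 0.19 and an adjusted p of 0.526 with all libraries. Zmiz1, a transcriptional coregulator (-0.42 ± 0.10, adjusted p = 0.526; 0.0261 by DESeq2), rose in C57, and Trak2, a mitochondrial transport adaptor (-0.25 ± 0.09, adjusted p = 0.802; 0.0261 by DESeq2), was called in neither strain; both were higher in DBA controls than in C57 controls.

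Kcne1, the beta subunit of a delayed rectifier potassium channel, had 24.8, 17.6, 28.1 and 19.4 CPM in DBA ligated hearts, against 36.3, 29.8, 27.5 and 47.7 CPM in DBA controls. In C57 it had 18.6, 11.8, 20.4 and 20.5 CPM in ligated hearts, against 13.3, 12, 12 and 8.7 CPM in controls. Kcne1 fell in DBA (-0.63 ± 0.20, adjusted p = 0.0277) and rose in C57 (0.65 ± 0.21, adjusted p = 0.0496), and the strains lay closer after ligation (0.33 ± 0.20) than in controls (1.61 ± 0.21). The ligated and control groups of each strain overlapped. The difference was -1.28 ± 0.29 (adjusted p = 0.412 by edgeR, 0.0267 by DESeq2). Igfals, which carries IGF complexes in blood, had 1.04, 0.733, 0.87 and 0.379 CPM in DBA ligated hearts, against 1.08, 1.8, 1.54 and 1.3 CPM in DBA controls. C57 hearts had 6.55, 6.77, 6.31 and 8.77 CPM after ligation, against 3.89, 2.83, 4.65 and 3.62 CPM in controls. Here no groups overlapped, and the strain difference was wider after ligation (-3.19 ± 0.24) than in controls (-1.37 ± 0.26). The difference of Igfals was -1.82 ± 0.36 (adjusted p = 0.387 by edgeR, 0.0126 by DESeq2), at levels of a few CPM.

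Fewer genes had a higher value in DBA. Akr1c14, a hydroxysteroid dehydrogenase of a multigene family, had 14.1, 14.7, 17.6 and 16.1 CPM in DBA ligated hearts, against 9.63, 11.7, 9.4 and 9.32 CPM in DBA controls, and 18.1, 17.7, 18.9 and 14.8 CPM in C57 ligated hearts, against 21.7, 19, 17 and 21.1 CPM in C57 controls. It rose in DBA toward the level of C57 hearts, with a difference of 0.80 ± 0.17 (adjusted p = 0.387 by edgeR, 0.0261 by DESeq2). Sorcs2, a sorting receptor, had 6.0, 5.31, 6.67 and 5.73 CPM in DBA ligated hearts, against 3.95, 5.62, 3.51 and 4.12 CPM in DBA controls, and 27.7, 32.4, 30.9 and 26.4 CPM in C57 ligated hearts, against 36.5, 36.3, 44.9 and 44.3 CPM in C57 controls. It fell in C57 and its DBA change was not called (adjusted p = 0.0509); the difference was 0.89 ± 0.19 (adjusted p = 0.412 by edgeR, 0.0346 by DESeq2). A530016L24Rik, named as a clone, averaged 48.9 ± 1.42 CPM in DBA ligated hearts, 40.2 ± 7.25 in DBA controls, 26.9 ± 6.7 in C57 ligated hearts and 42.4 ± 2.55 in C57 controls (difference 0.93 ± 0.21, adjusted p = 0.412; 0.0339 by DESeq2). Aldh1l2, a mitochondrial folate enzyme, fell in C57 (means of 8.87 CPM in DBA ligated hearts, 11.4 in DBA controls, 4.77 in C57 ligated hearts and 11.6 in C57 controls; difference 0.96 ± 0.23, adjusted p = 0.526 by edgeR).

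**Figure D5:**
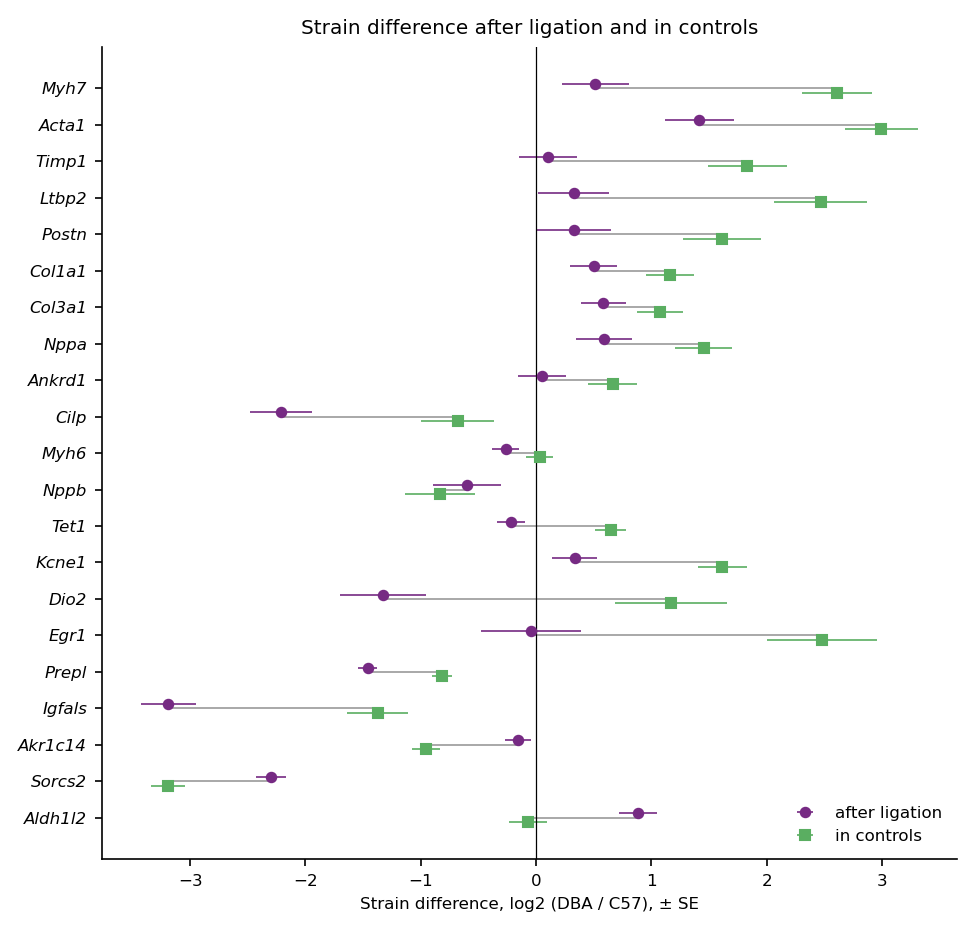
Log2 strain difference (DBA over C57, ± SE) of 21 genes after ligation (purple circles) and in controls (green squares); the distance between the points of a gene is its response difference. Myh7, Timp1, Ltbp2 and Egr1 lie far right of 0 in controls and near 0 after ligation, Dio2 lies right of 0 in controls and left of it after ligation, Cilp lies farther left after ligation than in controls, and Sorcs2 and Prepl lie left of 0 in both.

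Several of the largest fitted differences among the 23 genes came with levels near 0 in 1 group or with 1 high library. P4ha3, a prolyl hydroxylase of collagen, had 1.82, 3.24, 2.18 and 1.19 CPM in DBA ligated hearts, against 1.15, 2.32, 3.79 and 17.1 CPM in DBA controls, and 0.542, 0.223, 1.02 and 0.33 CPM in C57 ligated hearts, against 0 in all 4 C57 controls. Its high value came from DBA control 4, the shallowest library, and no fold is given. Serpinb1c, of a multigene family of protease inhibitors, had 5.01, 8.12, 5.27 and 5.95 CPM in DBA ligated hearts, against 2.16, 3.89, 5.05 and 3.69 CPM in DBA controls, and 1.9, 0.818, 2.68 and 0.857 CPM in C57 ligated hearts, against 0, 0, 0.0738 and 0.0861 CPM in C57 controls. Its log2 difference was negative and its CPM difference positive at 0.871 ± 1.03, the only one of the 23 genes whose sign turned between the scales. In their lowest groups Sprr1a averaged 0.0184 CPM (C57 controls), Cyp2b10 0.10 CPM (C57 ligated hearts) and 2900052N01Rik, named as a clone, 0.268 CPM (C57 controls). Egr1, an immediate early transcription factor, had 31.1, 25.8, 43.5 and 36.2 CPM in DBA ligated hearts, against 20.8, 72, 87.7 and 170.4 CPM in DBA controls, and 35.5, 23, 62.3 and 19.8 CPM in C57 ligated hearts, against 16.4, 19.4, 9.52 and 16.9 CPM in C57 controls. The DBA controls of Egr1 ranged more widely than the other groups; its difference was -2.52 ± 0.64 (adjusted p = 0.566 by edgeR, false discovery rate 0.0369 in the authors' deposited table).

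Genes can also be sorted by whether the strains differed in controls, after ligation or in both. The response difference equals the strain difference after ligation minus that in controls. For genes chosen by that difference the sorting therefore cannot separate a different start from a different response. In controls 1696 genes were higher in DBA and 1339 lower, and after ligation 1434 were higher and 1190 lower. Of the 17 genes of DESeq2, 9 differed between strains in controls alone, 3 after ligation alone and 5 in both with the same sign (edgeR calls). A difference in controls was not always a higher start in DBA, since Akr1c14, of the 9, was lower there (-0.96). Of the authors' 19, 10 differed in controls alone, 5 after ligation alone and 4 in both. Over all tested genes these shares were 9.04%, 6.0% and 13.4%. The strain differences share their libraries with the response differences that chose the genes, so these counts describe the genes and test nothing. Called responses of the 17 were in C57 alone for 7, in DBA alone for 4, in both with the same sign for 2, in both with opposite sign for 2 and in neither for 2. Over all genes the log2 difference was negative and the CPM difference positive for 746, and the reverse for 427.

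Among other gene groups, 23 immediate early genes had a median response difference of -0.60, with 7 lower and 0 higher at an unadjusted p under 0.05 (3.5% and 2.29% over all genes). Of these genes 3 rose and 1 fell in DBA (11.1% and 13.8% over all genes) and 5 rose in C57 (7.24% over all genes). Egr3 (-1.62 ± 0.49, adjusted p = 0.712) and the orphan nuclear receptors Nr4a3 (-1.73 ± 0.57, adjusted p = 0.712) and Nr4a1 (-2.68 ± 0.87, adjusted p = 0.712) had the smallest p after Egr1. The 19 stress and fetal genes had a median of -0.33, with 6 lower and 0 higher (3.5% and 2.29% over all genes). That median was -0.15 without DBA control 2 and -0.17 without C57 ligated 3. Xirp2, a muscle cytoskeletal protein (-0.69 ± 0.25, adjusted p = 0.819), and Clu, an extracellular chaperone (-0.47 ± 0.15, adjusted p = 0.712), joined those described above. Of 30 calcium handling and ion channel genes 18 fell in DBA (13.8% over all genes) and 9 fell in C57 (6.06% over all genes), where 1 rose. Their median difference was -0.15, with 6 lower and 1 higher at an unadjusted p under 0.05 (3.5% and 2.29% over all genes). That median was -0.089 without DBA control 3 and -0.093 without C57 ligated 2. Slc8a1, the sodium-calcium exchanger (-0.48 ± 0.15, adjusted p = 0.712), averaged 952 ± 40.1 CPM in DBA ligated hearts and 1349.6 ± 216 CPM in DBA controls, and 986 ± 75.4 CPM in C57 ligated hearts and 999 ± 81.5 CPM in C57 controls. Casq2, the calcium buffer of the sarcoplasmic reticulum, had -0.59 ± 0.20 (adjusted p = 0.766), and the pacemaker channel Hcn4 -0.78 ± 0.28 (adjusted p = 0.817).

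Other groups had positive medians. Of 32 interferon-stimulated genes 15 rose in DBA (11.1% over all genes) and 2 in C57, a share close to the 7.24% over all genes. The median response difference was 0.28, with 4 higher and 0 lower at an unadjusted p under 0.05 (2.29% and 3.5% over all genes) and none called. It was 0.11 without S42, 0.16 without C57 ligated 4 and 0.18 without C57 control 1. In controls 1 of the 32 was higher and 7 were lower in DBA (12.6% and 9.92% over all genes). Usp18, which removes the ubiquitin-like ISG15, had 3.97, 3.54, 2.8 and 4.49 CPM in DBA ligated hearts, against 2.16, 2.2, 1.54 and 1.73 CPM in DBA controls, and 5.42, 5.43, 7.33 and 3.95 CPM in C57 ligated hearts, against 6.57, 3.4, 4.65 and 6.29 CPM in C57 controls. It rose in DBA, where its control level was lower than in C57, with a difference of 0.81 ± 0.34 (adjusted p = 0.846). The antiviral genes Rsad2 (0.61 ± 0.27, adjusted p = 0.846), Cmpk2 (0.55 ± 0.22, adjusted p = 0.831) and Rtp4 (0.54 ± 0.24, adjusted p = 0.846) had values of like size. Of 32 genes of fatty acid metabolism 15 fell in DBA (13.8% over all genes) and 20 fell in C57 (6.06% over all genes), with none called higher. Their median difference was 0.20, with 2 higher and 0 lower (2.29% and 3.5% over all genes). That median was 0.12 without DBA control 4 and 0.30 without C57 ligated 2. Mlycd, which degrades malonyl-CoA, averaged 55.2 ± 5.91 CPM in DBA ligated hearts and 44.2 ± 10.9 CPM in DBA controls, and 86.3 ± 12.9 CPM in C57 ligated hearts and 112 ± 5.89 CPM in C57 controls, with a difference of 0.67 ± 0.20 (adjusted p = 0.71). For 18 genes of the unfolded protein response the median was 0.12, with 4 higher and 1 lower (2.29% and 3.5% over all genes). That median ranged from 0.066 without C57 control 1 (0.071 without C57 control 2) to 0.19 without DBA control 4. Of these 18 genes, Xbp1 (0.57 ± 0.21, adjusted p = 0.817) and the chaperone Hspa5 (0.41 ± 0.17, adjusted p = 0.846) fell in C57 and had no called change in DBA. Atf6 went the other way (-0.33 ± 0.11, adjusted p = 0.712). It fell in DBA (-0.45 ± 0.08, adjusted p = 0.0029) and had no called change in C57. For 18 clock genes the median was -0.21, with 1 higher and 3 lower (2.29% and 3.5% over all genes). It was -0.33 without C57 control 3, -0.14 without C57 ligated 1, -0.097 without DBA control 4, -0.081 without C57 control 1 and -0.070 without C57 control 2.

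Several lists showed no unadjusted p under 0.05 (5.79% over all genes). Among those with at least 10 genes tested, these were 20 sarcomere genes (median -0.07), 46 genes of oxidative phosphorylation and the citric acid cycle (0.06), 18 of glycolysis (0.08), 32 cell cycle genes (0.10), 10 of antigen presentation by MHC class II (0.22), 17 of the integrated stress response (-0.08), 12 glucocorticoid targets (-0.09) and the endothelial (18, 0.10) and mural cell markers (13, -0.07). The sarcomere median lay between -0.13 (without C57 control 1) and -0.034 (without C57 control 3). The cell cycle median ran from -0.044 without C57 control 4 to 0.32 without DBA control 1, and it was also negative without C57 ligated 2 or C57 control 1. Cell cycle genes rose in both strains, 13 of 32 in DBA (11.1% over all genes) and 10 in C57 (7.24% over all genes), where 1 fell, with medians of 0.80 in DBA and 0.81 in C57. Of 24 macrophage markers 9 rose in DBA (11.1% over all genes) and 8 in C57 (7.24% over all genes). Their median difference was -0.13, with 3 lower and 0 higher at an unadjusted p under 0.05 (3.5% and 2.29% over all genes). That median was -0.048 without C57 ligated 3, -0.071 without C57 control 2 and -0.21 without C57 control 1. The summed level of the macrophage markers was 863 to 1069 CPM in DBA ligated hearts, 671 to 859 in DBA controls, 572 to 799 in C57 ligated hearts and 466 to 504 in C57 controls. Trem2, a receptor of lipid-handling macrophages (-1.25 ± 0.45, adjusted p = 0.817), and Lgals3, galectin 3 (-1.06 ± 0.45, adjusted p = 0.846), had negative log2 differences. Both had the larger CPM increment in DBA, at 2.89 for Trem2 and 7.83 for Lgals3, against 1.59 and 2.81 in C57. Cd68 (-0.72 ± 0.34, adjusted p = 0.849) was negative on both scales, with -7.34 CPM in DBA and 3.21 CPM in C57, neither change called. Its CPM difference was -10.5, or -1.57 without the 3 shallowest libraries. Over the 24 markers the CPM difference was negative for 12 and positive for 12. The defining markers of neutrophils (Cxcr2, Ly6g), T cells (Cd3e, Cd8a) and fast skeletal muscle (Myh1, Myh2, Myh4) were not among the genes tested.

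Of 14 genes listed as known to differ between these strains 8 were tested, and 5 of the 8 differed both after ligation and in controls (13.4% over all genes). Cyfip2, a regulator of actin assembly, averaged 40 ± 5.12 CPM in DBA ligated hearts and 45.4 ± 8.61 CPM in DBA controls, and 376 ± 52.4 CPM in C57 ligated hearts and 498 ± 36.4 CPM in C57 controls, with a response difference of 0.22 ± 0.18 (adjusted p = 0.869). Tnni3k, a cardiac kinase with a known low allele in DBA, averaged 40.9 ± 1.29 CPM in DBA ligated hearts and 37.2 ± 4.72 CPM in DBA controls, and 146 ± 10.7 CPM in C57 ligated hearts and 173 ± 7.47 CPM in C57 controls (0.37 ± 0.12, adjusted p = 0.712). Glo1, the glyoxalase that is present in extra copies in DBA, was higher in DBA after ligation (1.01 ± 0.08) and in controls (0.86 ± 0.08), with a response difference of 0.15 ± 0.11 (adjusted p = 0.862).

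The number of called genes differed between models. With the first principal component of the residuals as a covariate, edgeR called 320 genes (2.37%), 162 higher and 158 lower. That component separates mainly the DBA controls, and without DBA control 4 the same model called 8, of which 6 were among the 320. Of the 320, 12 were among DESeq2's 17 and 14 among the authors' 19. Prepl was called by DESeq2, by this model and by this model without DBA control 4. The component was taken from the residuals of these same libraries, so it lowers the remaining spread by construction. All of these calls use the same counts, so their overlap is no independent support. With library totals in place of TMM scaling the median response difference of all genes moved by 0.0485, and that of the DBA response by 0.161 and the C57 response by 0.112. Under library totals 79.1% of DBA calls and 79.8% of C57 calls were higher, against 44.7% and 54.5% under TMM. The strain differences likewise had 74.0% higher calls after ligation and 68.7% in controls, against 54.6% and 55.9%.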

How the data were processed

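Per the submitters' processing notes, reads were aligned with STAR 2.5.2b to mm10 and counted per gene with featureCounts (Subread 1.5.1), and edgeR was used; for the annotation, the strand setting and reads with several matches, no source used here says what was done. The authors deposited 1 table of raw counts for 13842 genes, with their own edgeR log2 fold changes, p-values and false discovery rates beside the counts; 16 other per-sample columns were not used. Genes with low counts had been left out before deposit (the smallest gene total is 45). DBA reads were aligned to a C57BL/6 reference, so reads of divergent genes may be lost in DBA: a constant loss cancels in a log2 response difference but not in a strain difference or on the CPM scale. For 3 ligated DBA columns the mouse number differs from the labels, and these libraries are named S40, S41 and S42.

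The counts were fitted in R 4.3.3 with edgeR 4.0.16 (TMM scaling, filterByExpr, quasi-likelihood test, 4 groups in 1 model, prior degrees of freedom 5.45), leaving 13504 genes. Calls are at a Benjamini-Hochberg adjusted p under 0.05. The p-values rest on the spread between libraries of a group, each from 1 mouse, so differences between mice and between libraries are not separated. CPM are TMM-scaled, and CPM differences carry the SE of the group means with no test. Alternatives were RLE scaling, library totals, no filter, 1 CPM in 4 libraries, DESeq2 1.42.0, limma 3.58.1 voom with library weights, the first residual component, a GC offset (13024 genes with GC content, 96.4%), a replicate block, each library left out and the 3 shallowest libraries (DBA controls 3 and 4 and C57 control 1) left out. The scripts were tested on simulated data. Counts of no pair of libraries of a group agreed within sampling noise.

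Named genes are a panel of 10, up to 4 per list by the smallest p, the narrowest intervals among genes called in both strains, and known strain genes; parts of the rule on called genes named none. The genes called by DESeq2 or the authors, Hsd17b7 and Cilp were added after their values were seen, and 1 gene of these is not reported here. Members and lists were chosen with earlier results of these data known.

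Whether replicate numbers pair mice could be checked only in C57, where the columns of both groups carry numbers that the labels give. Deviations of same-numbered ligated and control hearts correlated at -0.06, -0.04, 0.01 and -0.07. These values gave no sign that the numbers pair mice, and they cannot exclude it.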

Additional observations from a re-analysis of the deposited data

Results flagged for a closer look

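Within-group values of 18 genes were examined in 72 groups of 4 libraries for a highest or lowest library that stands apart from the rest (Dixon's criterion at 95%). Chance gives about 1 in 20 such groups, and 5 were found. Myh7 had 2760 CPM in C57 ligated 1, above the rest of that group. Ltbp2 had 2.07 CPM in C57 control 4, below the rest of its group. Acta1 had 233 CPM in C57 control 2, above the rest of its group. P4ha3 had 17.1 CPM in DBA control 4, above the rest of its group, and Akr1c14 had 11.7 CPM in DBA control 2, above the rest of its group.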

How the results depend on the processing

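The count of 0 genes with an edgeR-called response difference held under RLE scaling, library totals, both other filters, voom with library weights, the GC offset and every library left out in turn. It was 17 by DESeq2, 320 with the residual component as a covariate, 8 with that covariate and without DBA control 4, and 1 without the 3 shallowest libraries, with or without the GC offset; the cause was not tested. Combinations of the component or the GC offset with left-out libraries were chosen after seeing the data. Of the called genes, those with a called strain difference in controls and none after ligation numbered 9 by DESeq2 and 173 by the calls of the fit with the residual component.

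Leaving out each library in turn gave 1318 to 5091 called genes for the DBA response and 618 to 2854 for the C57 response. Voom called 3016 for the C57 response and 4359 for the strain difference after ligation. The residual component gave 6181 for the DBA response, 4438 for the C57 response, 4369 for the strain difference after ligation and 5471 for that in controls; without DBA control 4 it gave 4801 for the C57 response and 4690 after ligation. Without the 3 shallow libraries these were 950 (DBA response), 2829 (C57 response) and 4342 (after ligation), and with the GC offset as well 1195, 2968 and 4469. Of single genes, Nppb ranged from -0.023 (without DBA control 1, a change of sign) to 0.61 (without DBA control 2) when single libraries were left out, the cell cycle median also changed sign, and 45 gene values under an alternative gained a call.

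The replicate block in the C57 libraries left the interaction at 0 calls and gave 1014 calls for the strain difference in controls and 1015 for that after ligation. The correlations gave no sign that the numbers pair mice, and these counts are given for completeness.

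With 4 mice a group, the 95% interval lay within 2-fold for 76.9% of genes, and its median half-width under 2 CPM was 1.21 on the log2 scale.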
